A study of Mus musculus with 24 samples.

Results

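A set of 9 genes known from the choroid plexus were followed across 24 microarrays of mouse brain: Ttr, Kl, Sostdc1, Aqp1, Folr1, Clic6, Otx2, Enpp2 and Igf2. They were chosen by name, and the choice was made with their levels and their joint movement in these arrays already known. Of the 9 genes, 8 had a row with their symbol in the platform annotation, each with 1 row, out of 19505 gene symbols measured. Enpp2 was not analysed here. The tissues were cerebral cortex, hippocampus and cerebellum, each taken from 4 knockout (KO) mice and 4 wild-type (WT) mice. The KO mice lacked glutamine synthetase in the liver only, as the labels state it, and the labels say nothing of a gene being altered in the brain of any animal. How the liver deletion was driven, and what strain, age or sex the mice were, is not stated in the labels. The labels number the animals 1 to 4 within each genotype and use the same numbers in every region, so KO 1 of the cortex and KO 1 of the hippocampus were read as the same mouse. The values are intensities that the authors processed with RMA, which removes background signal, puts the arrays on 1 distribution and combines the probes of each gene into 1 value. The log2 scale was inferred from the values, and if it holds, a difference of 1 is a 2-fold difference of the deposited signal. Of 22206 rows, 291 held a value over 16, the ceiling of a 16-bit scan on a log2 scale, and Ttr exceeded 16 in 7 of the 24 arrays. How such values arose is not stated in the labels. The number of arrays, 4 in each of the 6 groups, limits the precision of every difference given here.

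The choroid plexus is a fringe of epithelium and vessels that hangs into the brain ventricles and secretes the cerebrospinal fluid. Its epithelial cells pump ions and water towards the ventricle and release carrier proteins and growth factors into the fluid. The lateral ventricle, which holds one choroid plexus, lies against the hippocampus, and the fourth ventricle, which holds another, lies under the cerebellum. A bulk sample of either region may therefore contain some of this epithelium. In bulk tissue, fewer cells of a type and less RNA per cell cannot be told apart.

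The genes lie scattered over the mouse genome, and only Folr1 and Igf2 share a chromosome. In the RefSeq annotation of GRCm38.p6, Kl spans chr5:150952607-150993817, Aqp1 chr6:55336299-55348555, Folr1 chr7:101858331-101870788, Igf2 chr7:142650768-142666816, Sostdc1 chr12:36314169-36318452, Otx2 chr14:48656781-48667644 and Clic6 chr16:92498147-92541241. RefSeq promoter windows, 250 bases before to 50 bases after a start, were held for 4 of the 8 genes. Because the genes were followed for moving together, windows of 3 of them are printed next to that of Kcnj13, a potassium channel gene of the same epithelium whose level followed theirs closely, as described below. Each reads 5′ to 3′ on the strand of the gene, and capitals mark a searched motif. Kl is the plus strand of chr5:150952357-150952656, Aqp1 the plus strand of chr6:55336049-55336348, Otx2 the minus strand of chr14:48665060-48665359, which is 1 of its 4 windows, and Kcnj13 the minus strand of chr1:87394680-87394979.
Kl: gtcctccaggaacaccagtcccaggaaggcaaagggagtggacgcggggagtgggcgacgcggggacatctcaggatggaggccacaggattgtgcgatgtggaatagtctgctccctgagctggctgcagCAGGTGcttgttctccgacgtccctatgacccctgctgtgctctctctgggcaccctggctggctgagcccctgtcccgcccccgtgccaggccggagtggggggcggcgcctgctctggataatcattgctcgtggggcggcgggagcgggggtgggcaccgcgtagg
Aqp1: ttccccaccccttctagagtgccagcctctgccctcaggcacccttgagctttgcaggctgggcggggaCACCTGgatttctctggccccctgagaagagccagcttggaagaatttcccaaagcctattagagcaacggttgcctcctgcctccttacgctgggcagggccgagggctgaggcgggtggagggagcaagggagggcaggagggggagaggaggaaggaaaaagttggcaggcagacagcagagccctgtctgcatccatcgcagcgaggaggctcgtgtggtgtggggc
Otx2: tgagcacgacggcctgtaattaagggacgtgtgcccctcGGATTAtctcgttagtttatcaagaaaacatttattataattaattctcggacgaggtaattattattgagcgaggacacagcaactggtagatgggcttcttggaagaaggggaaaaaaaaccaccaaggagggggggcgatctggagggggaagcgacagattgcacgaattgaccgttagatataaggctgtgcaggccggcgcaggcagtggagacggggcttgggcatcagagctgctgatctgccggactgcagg
Kcnj13: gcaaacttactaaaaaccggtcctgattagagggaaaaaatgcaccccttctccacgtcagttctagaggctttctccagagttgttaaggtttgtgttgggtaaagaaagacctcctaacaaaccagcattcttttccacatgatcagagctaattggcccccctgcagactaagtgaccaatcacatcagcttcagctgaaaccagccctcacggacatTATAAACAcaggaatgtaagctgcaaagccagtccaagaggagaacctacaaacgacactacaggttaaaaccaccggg

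The motifs were TAATCC, bound by OTX homeobox factors, TGTTTA, bound by forkhead factors, the TATA box TATAAA, and the E-box CACCTG, each read on both strands. The capitals in Kl (CAGGTG) and Aqp1 (CACCTG) are E-boxes, which 20.2% of the 32851 RefSeq mouse promoter windows hold. The capitals in Otx2 (GGATTA) are the OTX motif on the opposite strand, held by 7.06% of windows. In Kcnj13 a TATA box and the reverse of the forkhead motif, TAAACA, overlap in 1 run of capitals. The TATA box occurs in 13.6% of windows and the forkhead motif in 13.4%. Over the 10 windows of Kl, Aqp1, Igf2 and Otx2, the OTX motif was present in 2, the forkhead motif in 0, the TATA box in 1 and the E-box in 2. Over the 13 windows of the genes most like them, named below, from which that of Kcnj13 is shown, the forkhead motif was present in 1, the TATA box in 2, the E-box in 2 and the OTX motif in 1. Every printed window holds a searched motif, and the printed Otx2 window is the only window of that gene with the OTX motif. Other windows, which are not printed, hold none, so the printed windows do not show how common the motifs are. These matches describe the letters of the windows and nothing was measured about binding.

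Several facts of the whole series touch the results. The array medians ran from 8.85 to 8.95. Over the 19572 rows with a gene, the median residual standard deviation within groups was 0.19 and 95% of rows lay below 0.37. The mean of 7 cerebellar markers, Gabra6 among them, was 14.34 to 16.15 in cerebellum and at most 8.49 in the other 2 regions. All 8 hippocampal markers had a higher mean in hippocampus than in either other region in both genotypes. The 7 cortical markers were all higher in cortex than in cerebellum. Against hippocampus, 6 of them were higher in cortex in KO and 7 in WT. The cortex arrays of KO 1 and KO 4 carried markers of the olfactory bulb, with a list mean over 11 genes of 11.56 and 10.91, while the remaining 6 cortex arrays had 7.70 to 8.24. The cerebellum array of KO 3 carried markers of brainstem and spinal cord at a mean of 8.44 over 13 genes, against 7.07 to 7.42 in the other 7 cerebellum arrays. Its mean over 11 oligodendrocyte genes was 14.11, against 12.05 to 12.65 in those 7. In the hippocampus the 11 markers of thalamus and habenula averaged 10.50, 10.74, 9.60 and 9.10 in KO 1 to KO 4, and 9.65, 9.50, 10.93 and 10.31 in WT 1 to WT 4.

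Ttr encodes transthyretin, the thyroid hormone and retinol carrier that the choroid plexus epithelium secretes, and lies at chr18:20664209-20674326 (GRCm38.p6). In the hippocampus Ttr was 18.33, 17.15, 13.64 and 10.65 in KO 1 to KO 4. In WT 1 to WT 4 of the same region it was 13.60, 14.37, 17.40 and 17.69. High and low arrays occurred in both genotypes, and the span of 7.68 between KO 1 and KO 4 exceeded every difference between group means. In the cerebellum Ttr was 10.17, 9.66, 17.56 and 9.82 in KO 1 to KO 4, against 16.51, 17.09, 9.65 and 15.89 in WT 1 to WT 4. These 8 values fell into 2 separate levels, with KO 3 alone high among the KO arrays and WT 3 alone low among the WT arrays. In the cortex it was 12.00, 10.81, 11.11 and 10.14 in KO 1 to KO 4, against 15.28, 11.61, 11.71 and 11.43 in WT 1 to WT 4. The cortex of WT 1 stood alone at 15.28, and the other 7 cortex arrays lay between 10.14 and 12.00. Ttr had the largest residual standard deviation within groups of all 19572 rows, 2.81.

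**Figure D1:**
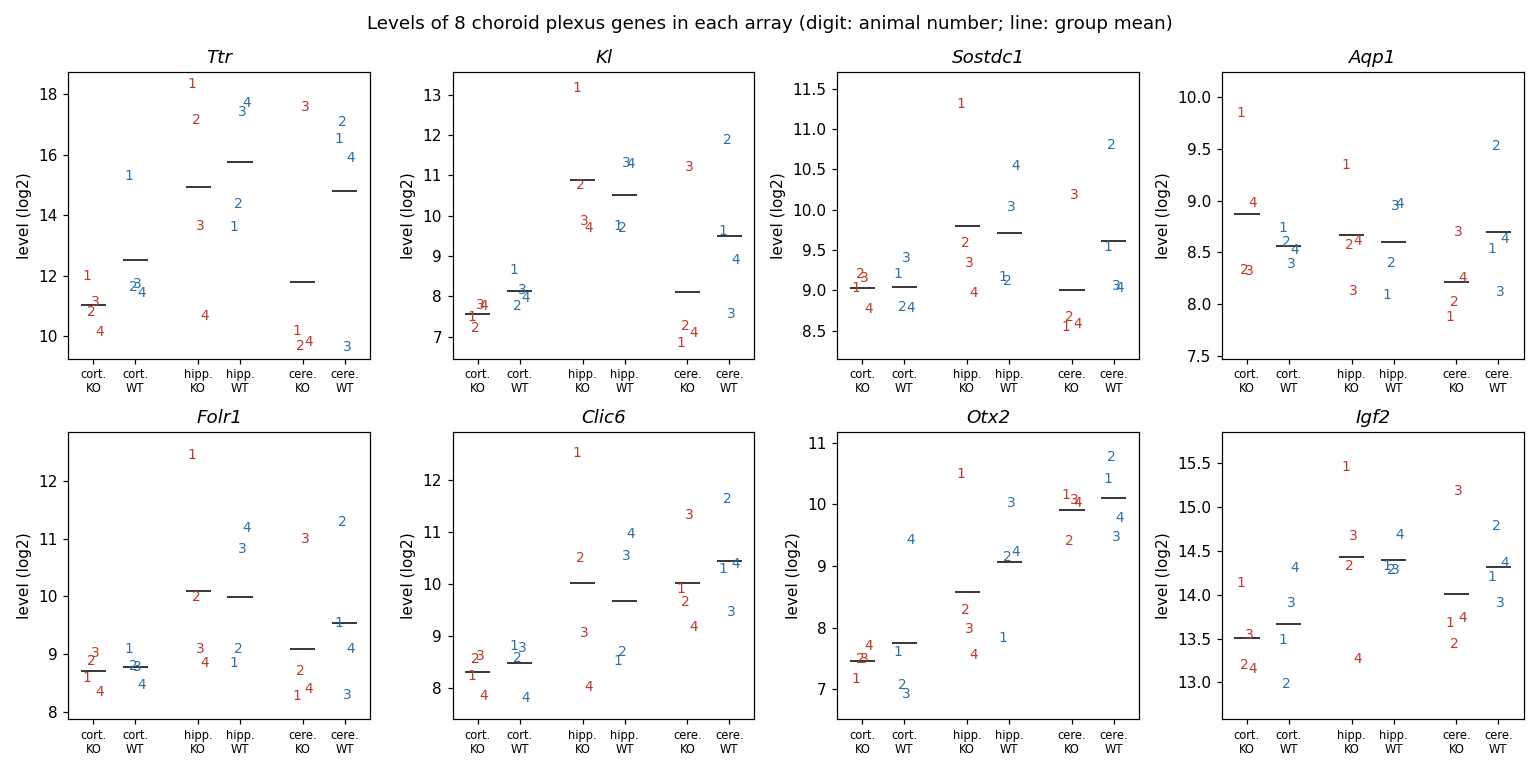
Level (log2, vertical axis) of 8 choroid plexus genes in each array, with KO left of WT in cortex, hippocampus and cerebellum; digits are animal numbers and lines are group means. Ttr ran from 10.65 to 18.33 in hippocampus, and in Otx2 and Clic6 every cerebellum array lay above the cortex arrays of its own genotype.

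A high level of Ttr in one region did not always go with a high level in another region of the same mouse, if the shared numbers mean the same mouse. KO 1 had 18.33 in hippocampus and 10.17 in cerebellum, and KO 2 had 17.15 and 9.66. KO 3, with 13.64 in hippocampus, had 17.56 in cerebellum. WT 3 combined 17.40 in hippocampus with the lowest value of all 24 arrays, 9.65, in cerebellum. WT 4 was high in both, with 17.69 in hippocampus and 15.89 in cerebellum, and KO 4 was low in both, with 10.65 and 9.82. WT 1, which held the highest cortex value, had the lowest WT value in hippocampus, 13.60.

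The genes Kl, Folr1, Sostdc1 and Clic6 were highest in arrays that were also high in Ttr. Kl encodes klotho, a membrane protein that serves as co-receptor for the hormone FGF23. Kl in hippocampus was 13.17, 10.77, 9.88 and 9.70 in KO 1 to KO 4, against 9.74, 9.69, 11.31 and 11.29 in WT 1 to WT 4. In cerebellum it was 6.85, 7.27, 11.21 and 7.09 in KO 1 to KO 4, against 9.63, 11.87, 7.56 and 8.90 in WT 1 to WT 4. The arrays that were high in Ttr were high in Kl in both regions, and the order at the top differed, with cerebellum WT 2 above KO 3. In cortex Kl stayed between 7.20 and 8.66, and its highest value was again in WT 1. The residual standard deviation of Kl, 1.37, ranked 7 among all rows.

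Folr1 encodes folate receptor alpha, which carries folate across the choroid plexus into the fluid. In hippocampus it was 12.44, 9.99, 9.09 and 8.86 in KO 1 to KO 4, against 8.85, 9.08, 10.81 and 11.18 in WT 1 to WT 4. In cerebellum it was 8.28, 8.70, 10.99 and 8.40 in KO 1 to KO 4, against 9.53, 11.28, 8.29 and 9.09 in WT 1 to WT 4. In cortex it stayed within 0.74, from 8.34 in KO 4 to 9.09 in WT 1. Folr1 did not follow Ttr in proportion: cortex WT 1 and cerebellum WT 4, at 15.28 and 15.89 in Ttr, both had 9.09 in Folr1, close to arrays with a Ttr near 11.

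Sostdc1 encodes a secreted antagonist of BMP and Wnt signals. Its hippocampus values were 11.31, 9.58, 9.34 and 8.97 in KO 1 to KO 4, against 9.17, 9.11, 10.03 and 10.55 in WT 1 to WT 4. Its cerebellum values were highest in WT 2 with 10.80 and in KO 3 with 10.18, while the other 6 arrays lay between 8.55 and 9.54. In cortex it varied by 0.64. The highest arrays in both regions were therefore those of Kl and Folr1.

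Clic6, a gene of the chloride intracellular channel family, was 12.53, 10.50, 9.07 and 8.03 in hippocampus of KO 1 to KO 4, against 8.53, 8.70, 10.54 and 10.98 in WT 1 to WT 4. In cerebellum it was 9.92, 9.67, 11.34 and 9.18 in KO 1 to KO 4, against 10.29, 11.64, 9.47 and 10.39 in WT 1 to WT 4. The cortex values, 7.81 to 8.82, lay below every cerebellum array. Clic6 thus kept a level in the cerebellum arrays of low Ttr that was above its cortex level, unlike Kl and Folr1, whose low cerebellum arrays overlapped with cortex.

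Otx2 encodes a homeobox transcription factor required for choroid plexus development, and in the developing mouse cerebellum it is also made by granule cell precursors. Cerebellum arrays had 10.16, 9.41, 10.07 and 10.03 in KO 1 to KO 4, against 10.42, 10.77, 9.47 and 9.79 in WT 1 to WT 4. All 8 were high, whether Ttr was at 9.65 or at 17.56. In hippocampus Otx2 was 10.49, 8.29, 7.97 and 7.56 in KO 1 to KO 4, against 7.83, 9.15, 10.02 and 9.23 in WT 1 to WT 4. There it was highest in KO 1, where Ttr was also highest. In cortex 7 arrays lay between 6.92 and 7.70 and WT 4 stood at 9.42, although Ttr in that array was 11.43.

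Aqp1 encodes the water channel of the apical epithelial membrane. Its highest value of all was in cortex, 9.84 in KO 1, followed there by 8.97 in KO 4, while the remaining 6 cortex arrays had 8.32 to 8.73. Those 2 arrays are the ones that carried olfactory bulb markers, and their Ttr was 12.00 and 10.14. The part of those markers in the Aqp1 values was not tested. In hippocampus Aqp1 was 9.34, 8.57, 8.13 and 8.61 in KO 1 to KO 4, against 8.09, 8.40, 8.95 and 8.97 in WT 1 to WT 4. In cerebellum it was 7.87, 8.02, 8.69 and 8.26 in KO 1 to KO 4, against 8.53, 9.52, 8.12 and 8.63 in WT 1 to WT 4, with the same 4 arrays on top as for Ttr.

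Igf2 encodes a growth factor released into the fluid by the choroid plexus and made also in meninges and vessels. It was high everywhere, between 12.98 and 15.46, and 96.4% of rows had a lower mean. The highest value in hippocampus was 15.46 in KO 1 and the lowest 13.26 in KO 4. In cerebellum KO 3 had 15.19 and the other KO arrays 13.44 to 13.74, against 13.90 to 14.78 in WT. Cortex ran from 12.98 to 14.31. The 16 markers of meninges and fibroblasts averaged 10.16 in cerebellum KO 3 and 9.33 to 9.57 in the other 7 cerebellum arrays, and their part in the Igf2 level was not tested.

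The joint movement of the 8 genes was the ground on which they were selected on these arrays, so it is given as a description. Each value was expressed as its deviation from the mean of its region and genotype. Over the 24 arrays all 28 pairs of genes had a positive Pearson correlation of these deviations, with a median of 0.69 and a range from 0.45 to 0.97. Paired genes share array and tissue piece. Over 21 arrays, with cortex KO 1, cortex KO 4 and cerebellum KO 3 left out, a choice made after seeing the data, the median was 0.70 and all 28 pairs were again positive. The closest pair was Folr1 with Sostdc1, at 0.97, and Folr1 with Kl reached 0.95. Against the median of the other 7 genes, Folr1 had 0.97, Clic6 and Sostdc1 both 0.94, Kl 0.89 and Ttr 0.81. Aqp1, Igf2 and Otx2 followed less closely, with 0.68, 0.67 and 0.64.

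**Figure D2:**
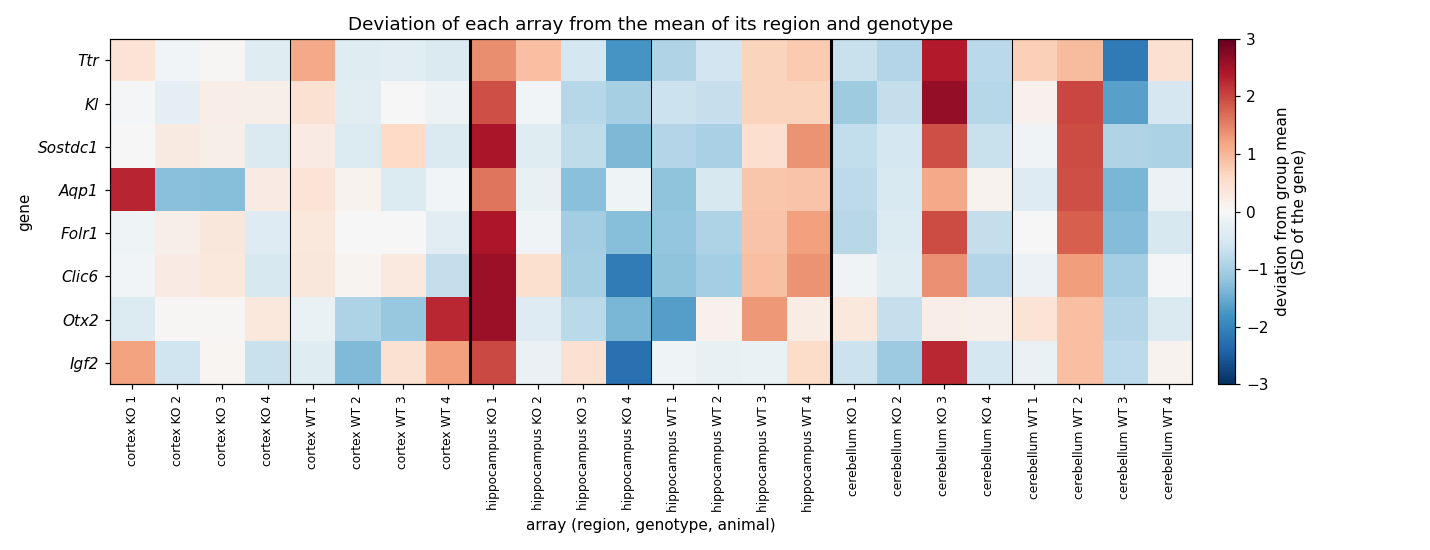
Deviation of each array (columns, KO before WT within each region) from the mean of its group, for 8 genes (rows), in units of the gene's own standard deviation. Hippocampus KO 1, cerebellum KO 3 and cerebellum WT 2 are high across most genes, whereas in cortex WT 4 Otx2 and Igf2 stand out.

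Within single regions the correlations were taken between levels, KO and WT arrays together, so a difference between the genotypes enters them. Over the 8 hippocampus arrays the median of the 28 correlations was 0.83 and the lowest 0.42. Over the 8 cortex arrays the median was 0.13, the range was -0.67 to 0.91 and 17 of 28 were positive. Ttr and Kl in cortex had 0.75, a value to which WT 1, highest in both, contributes. With deviations from the group means in place of levels, a choice made after seeing the data, the medians were 0.87 in hippocampus and 0.11 in cortex, and Ttr and Kl in cortex had 0.64. In the cerebellum Ttr took 2 separate levels, so its own 7 correlations there are not given. The 21 pairs of the other 7 genes, also taken after seeing the data, had a median of 0.89 between levels over the 8 cerebellum arrays, from 0.52 to 0.98, against 0.83 in hippocampus and 0.12 in cortex. Ranks give a view that includes Ttr: the 4 cerebellum arrays of highest Ttr, namely KO 3, WT 1, WT 2 and WT 4, were also the 4 highest for 5 of the other 7 genes, and the 2 remaining genes shared 3 of the 4. In hippocampus 4 of the other 7 genes had the same 4 highest arrays as Ttr, KO 1, KO 2, WT 3 and WT 4, and in cortex none did. Of all 19505 genes, 3.38% had those same 4 arrays on top in hippocampus, 0.641% in cerebellum and 1.84% in cortex.

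**Figure D3:**
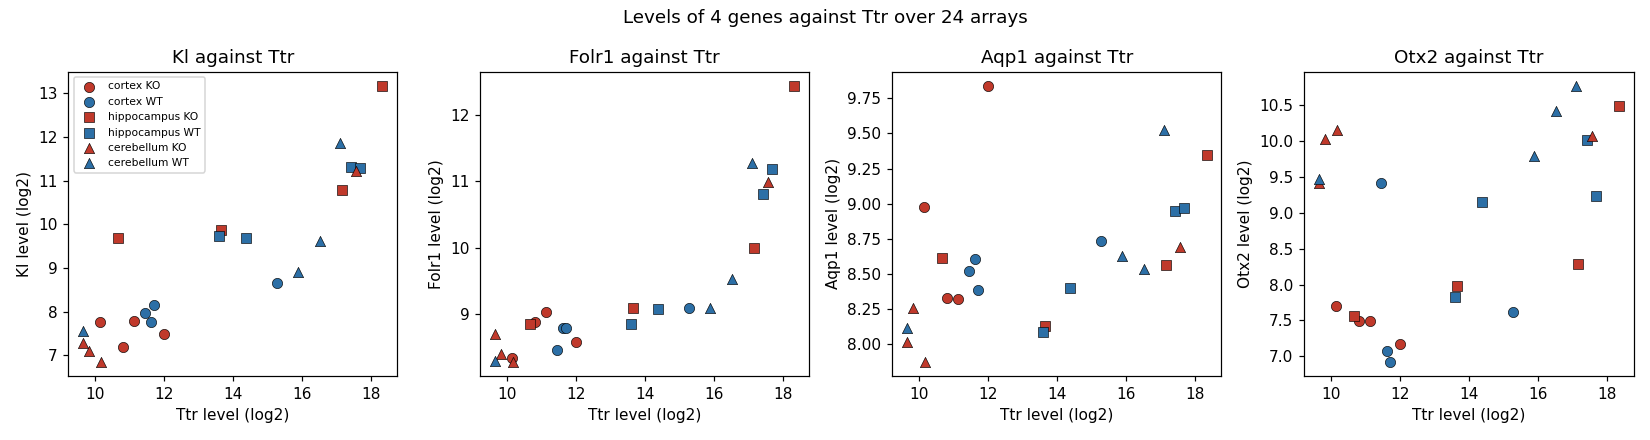
Level (log2) of Kl, Folr1, Aqp1 and Otx2 against the level of Ttr (log2) over 24 arrays; colours are genotypes and symbols are regions. Folr1 is nearly flat up to a Ttr of 15.28 and reaches 12.44 at a Ttr of 18.33, and in the Otx2 panel all 8 cerebellum arrays lie at 9.41 or above.

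Which other genes had the same pattern was asked of all 19497 remaining symbols, by the correlation of their deviations with the median deviation of the 8 genes over 24 arrays. The closest was F5, coagulation factor V, at 0.96. Next came Steap1 at 0.96, Ecrg4, which encodes a secreted peptide precursor, at 0.95, Drc7, a component of the motile cilium, at 0.95, and Kcnj13, the potassium channel Kir7.1, at 0.95. Lbp, the lipopolysaccharide-binding protein, and Ace, the angiotensin-converting enzyme, both had 0.93. Kcne2, a potassium channel subunit, had 0.93, Gmnc, a regulator of multiciliated cells, 0.90 and Cab39l 0.90. Of these 10 genes, 6 (F5, Steap1, Kcnj13, Ace, Kcne2 and Cab39l) matched by symbol a list of 40 other choroid plexus genes, of which 36 symbols were measured. A gene listed under another name counts here as unlisted and its listed name as unmeasured, so both counts are lower bounds. A correlation above 0.8 was found for 30 of the 19497 genes, 10 of them with a symbol on that list. The median correlation was 0.67 over the 36 listed genes and -0.06 over all.

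The listed choroid plexus genes with the widest span over the 8 hippocampus arrays were Kcnj13, F5, Steap1, Ace, Kcne2 and Sulf1. Kcnj13 ran from 8.76 to 14.10 with a median of 11.08. F5 ran from 6.28 to 10.33, Steap1 from 6.25 to 9.77, Ace from 7.58 to 11.06, Kcne2 from 6.61 to 9.92 and Sulf1, an extracellular sulfatase, from 7.79 to 11.01. At the other end Slc28a3 (7.94 to 8.25), Col8a2 (10.92 to 11.23), Msx1 (9.10 to 9.46) and Slc39a4 (7.34 to 7.79) hardly varied. A span over 1 was seen in 20 of the 36 genes, or 55.6%, and in 3.91% of all genes, and the median spans were 1.18 and 0.50. All 8 members spanned more than 1 in hippocampus, with a median of 3.21.

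Markers of neighbouring tissues moved with these genes to different degrees. In the hippocampus, over 8 arrays, the mean of 14 genes of cerebrospinal fluid secretion and ion transport correlated with the median of the 8 genes at 0.92, that of 14 ependymal and motile cilia genes at 0.77, and that of 11 thalamus and habenula genes at 0.75. Endothelium and pericytes (14 genes) had 0.66, oligodendrocytes (11 genes) 0.58 and meninges and fibroblasts (16 genes) 0.19. Other regions gave another order. The cerebellum values include KO 3, the array with brainstem and oligodendrocyte markers, and were not computed without it. In cerebellum the ependymal list had 0.64, meninges and fibroblasts 0.62, fluid secretion 0.56, brainstem and spinal cord 0.55, endothelium and oligodendrocytes 0.28 each, and thalamus and habenula -0.02. For markers of the regions themselves the cerebellum values were 0.65 for cerebral cortex (7 genes), 0.63 for hippocampus (8 genes) and -0.71 for cerebellum (7 genes). The receptors, carriers and other partners of the 8 genes (19 genes) had 0.80. In the hippocampus arrays these lists had, in the same order, -0.08, -0.48, 0.46 and 0.80. In cortex the ependymal list had 0.41, and the lists of fluid secretion, thalamus, endothelium, oligodendrocytes and meninges lay between -0.34 and -0.03. The ependymal list mean ran from 7.26 to 7.64 in KO and from 7.19 to 7.62 in WT hippocampus. The thalamus and habenula list was highest in KO 1, KO 2, WT 3 and WT 4, the 4 arrays that were also highest in Ttr. The part that other tissue in a piece has in these levels was not tested. Of 6 blood cell genes 2 were measured, and their mean in hippocampus ran from 8.88 to 9.33 in KO and from 8.94 to 9.13 in WT.

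**Figure D4:**
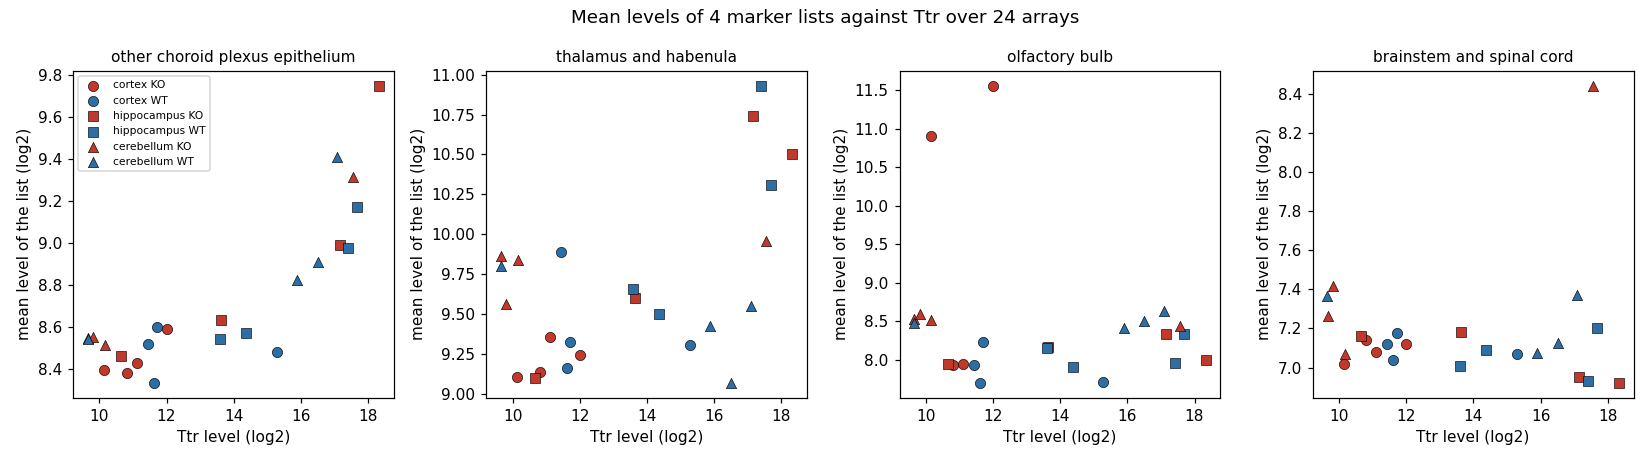
Mean level (log2) of 36 other choroid plexus genes and of 3 marker lists of neighbouring tissue against Ttr (log2) over 24 arrays; colours are genotypes and symbols are regions. Cortex KO 1 and KO 4 stand at 11.56 and 10.91 for olfactory bulb, and cerebellum KO 3 at 8.44 for brainstem and spinal cord.

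The comparison of KO with WT asks whether loss of the liver enzyme, which clears ammonia from the blood, is accompanied by other levels of these genes in the brain. None of the 8 genes passed in any region, and the KO and WT values of every gene overlapped in every region. The share of all rows with such overlap was not counted. Limma with Benjamini-Hochberg adjustment over 19572 rows called 0 rows (0%) in cortex, 0 (0%) in hippocampus and 0 (0%) in cerebellum. At an unadjusted p under 0.05, limma counted 1459 rows (7.45%) in cortex, 412 (2.11%) in hippocampus and 1860 (9.5%) in cerebellum, and 0 of the 8 genes in each. Leaving out cortex KO 2 gave 55 called rows and leaving out cortex KO 3 gave 34, with 0 of the 8 genes among them. Both fits keep cortex KO 1 and KO 4, the arrays with olfactory bulb markers. With KO 1 and KO 4 left out together, limma called 0 rows in cortex, and 3.54% of rows had an unadjusted p under 0.05.

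In the cerebellum all 8 genes had a lower mean in KO. Ttr averaged 11.80 ± 3.84 in KO mice and 14.78 ± 3.46 in WT mice (SD, n = 4 each). The difference was -2.98 with a standard error of 1.69 and a 95% interval from -6.46 to 0.50. Its limma adjusted p was 0.574, and the exact permutation test of this 1 gene gave p = 0.486, adjusted to 0.714 over the 3 regions. Kl averaged 8.10 ± 2.08 in KO mice and 9.49 ± 1.80 in WT mice (SD, n = 4 each). Its difference was -1.38 with an interval from -3.08 to 0.31 and a limma adjusted p of 0.591. Sostdc1 differed by -0.61, Aqp1 by -0.49, Folr1 by -0.45, Clic6 by -0.42, Igf2 by -0.30 and Otx2 by -0.19. The median of the 8 differences was -0.47, and that of all rows -0.0037. In the same arrays 7 of 7 cerebellar markers had a lower mean in KO (median -0.41), with 0 passing after adjustment. A higher mean was found in 11 of 11 oligodendrocyte genes (median 0.51) and 9 of 13 brainstem and spinal cord genes (median 0.23), again with 0 passing. The KO means include KO 3, the cerebellum array highest in the oligodendrocyte and brainstem lists, and the list medians were not taken without it. The part of these markers in the 8 differences was not tested. These differences are not independent of each other, since the same arrays were high in all of the genes. With KO 3, the array of the brainstem markers, left out, the difference of Ttr became -4.90 and Ttr, Kl and Sostdc1 reached an unadjusted p under 0.05 in limma, as 3.52% of rows did, with 0 genes passing after adjustment. With WT 3 left out, Ttr differed by -4.69 and Ttr, Kl and Aqp1 reached it, as 10.5% of rows did, again with 0 passing. With array weights Ttr and Kl reached it, as 6% of rows did.

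In the cortex Ttr averaged 11.02 ± 0.77 in KO mice and 12.51 ± 1.85 in WT mice (SD, n = 4 each). The difference was -1.50 with a standard error of 1.69 and an interval from -4.97 to 1.98, and the limma adjusted p was 0.888. The exact permutation p of Ttr was 0.143, adjusted to 0.429. WT 1 decided its size: without that array the difference was -0.57. Kl differed by -0.57 and Aqp1, in the opposite direction, by 0.30. Without KO 1, the array of highest olfactory bulb markers, Aqp1 differed by -0.02. The fit shares 1 estimate of the spread over all regions, and for Ttr that spread is mostly that of hippocampus and cerebellum. Fitted on the 8 cortex arrays alone, limma gave Kl an unadjusted p under 0.05, as it did 6.16% of rows, and with the replicate number as a block it did so for Ttr and Kl and 5.88% of rows. None of the 8 genes passed after adjustment.

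In the hippocampus Ttr averaged 14.94 ± 3.49 in KO mice and 15.76 ± 2.08 in WT mice (SD, n = 4 each). It differed by -0.82 with an interval from -4.30 to 2.66. The exact permutation p of Ttr was 0.714 before and after adjustment, where 4 against 4 arrays cannot give less than 0.0286. Of the 8 genes, Ttr and Otx2 had the lower mean in KO, and the other 6 differed by 0.04 to 0.37. Without KO 1 all 6 of these were negative, with Folr1 at -0.67 and Kl at -0.39, and Otx2 reached an unadjusted p under 0.05 in limma, as 2.36% of rows did. Leaving out WT 1 or WT 2 also turned 4 of the 6 negative, and without KO 4 the difference of Ttr was 0.61.

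**Figure D5:**
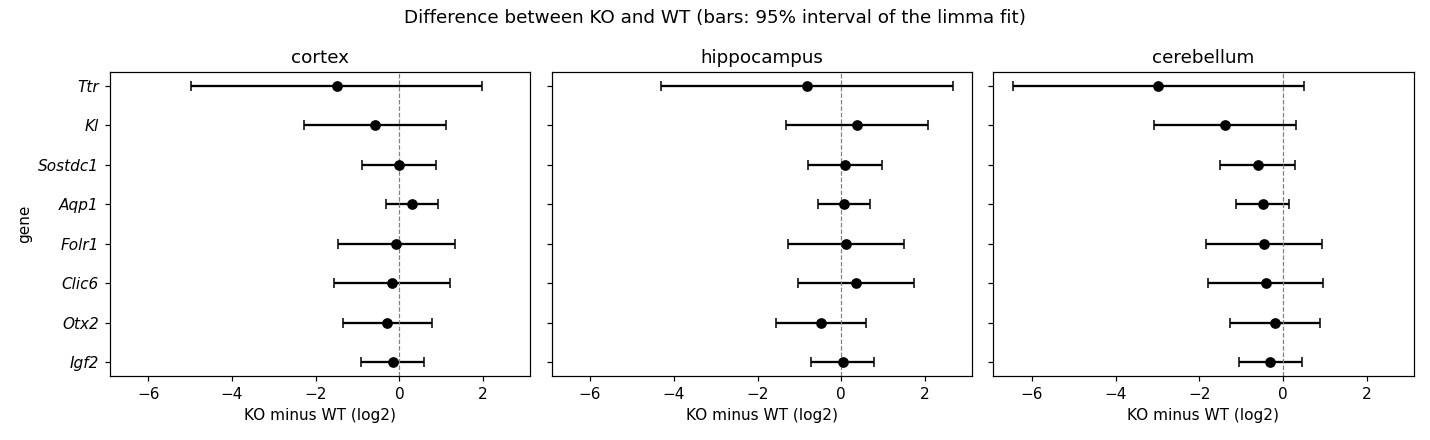
KO minus WT difference (log2, horizontal axis) of 8 genes in cortex, hippocampus and cerebellum; points are limma estimates from 4 KO and 4 WT arrays and bars their 95% intervals. Every interval includes 0, and the widest are those of Ttr.

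Averaged over the regions, with the animal as a random block, Ttr differed by -1.77 (standard error 0.98) with a limma adjusted p of 0.698. Limma called 0 rows (0%) for this average, with 1450 rows (7.41%) at an unadjusted p under 0.05 and 0 of the 8 genes among them. A difference of the KO effect between the regions was tested by an F statistic. Limma called 0 rows (0%) there too, with 996 rows (5.09%) at an unadjusted p under 0.05 and 0 of the 8 genes. The adjusted p of the F statistic in limma lay between 0.922 for Aqp1 and 0.988 for Otx2.

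Differences between regions were part of the ground for choosing the 8 genes, so they are described without a test. Kl in hippocampus exceeded cortex by 3.32 in KO and by 2.37 in WT (standard error 0.82 each), in all 4 animals of each genotype and with no overlap. Ttr in hippocampus exceeded cortex by 3.93 in KO and 3.25 in WT (standard error 1.69 each), with overlap in both genotypes. Otx2 in cerebellum exceeded cortex by 2.45 in KO and 2.35 in WT (standard error 0.52), without overlap. Clic6 in cerebellum exceeded cortex by 1.71 in KO and 1.95 in WT (standard error 0.67), also without overlap. The share of all rows without overlap between regions was not counted, so the lack of overlap only describes these arrays. By mean level the order for Ttr was hippocampus, cerebellum and cortex in both genotypes, and none of these neighbours was separated from the next by its arrays. The mean was higher in hippocampus than in cortex for 7 of the 8 genes in KO and all 8 in WT. Against cortex, cerebellum was higher for 6 in KO and 8 in WT. Aqp1 in hippocampus differed from cortex by -0.20 in KO and 0.04 in WT (standard error 0.30), with overlap. In cerebellum against cortex, Aqp1 differed by -0.65 in KO and 0.14 in WT, and Sostdc1 by -0.04 and 0.56.

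Of the 36 other choroid plexus genes, the calls between regions required an adjusted p under 0.05 in limma and at least a 2-fold difference. Between hippocampus and cortex 3 were higher in hippocampus in KO (0.945% of all rows called higher, 0.899% lower) and 2 in WT (0.746% higher, 0.618% lower), with 0 lower in either. They were Slc29a4, a monoamine transporter, and Car12, a carbonic anhydrase, in both genotypes, and the cation channel gene Trpm3 in KO. Car12 exceeded cortex by 2.09 in KO and by 2.08 in WT. Between cerebellum and cortex 3 were higher in cerebellum in KO (3.63% of rows higher, 4.58% lower) and 5 in WT (4.51% higher, 5.47% lower), with 0 lower. Slc29a4, Trpm3 and Vat1l passed in both genotypes, and Rdh5 and Sulf1 in WT. In KO Rdh5 missed only the 2-fold minimum, at 0.80 (limma adjusted p 0.0128), and Sulf1 missed both criteria, at 0.69 (0.254). Trpm3 differed by 2.45 in KO and 2.52 in WT. Between cerebellum and hippocampus 2 were higher and 1 lower in KO (3.49% of rows higher, 4.63% lower), and 3 higher and 1 lower in WT (3.98% higher, 5.85% lower). The lower one was Car12 in both genotypes, at -3.28 in KO and -2.88 in WT, and Trpm3 and Vat1l were higher in both. Over 24 arrays, deviations of these called genes correlated with the median deviation of the 8 genes from 0.26 for Slc29a4 to 0.77 for Rdh5. Trpm3 had 0.55, Vat1l 0.60, Sulf1 0.62 and Car12 0.75. With all animals, F5, Steap1, Kcnj13, Ace and Kcne2, which followed the 8 genes at 0.93 to 0.96, were not called between any regions. Without animal KO 3, the count for cerebellum against hippocampus in KO was 9 in place of 3.

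Among the 14 measured genes of fluid secretion and ion transport, 4 were called higher in cerebellum than in cortex in both genotypes (3.63% of all rows in KO, 4.51% in WT) and 1, the potassium channel gene Kcna3, lower in WT. The 4 higher ones were Atp1b2, a sodium pump subunit, at 1.69 in KO and 1.41 in WT, the bicarbonate cotransporter Slc4a4, at 1.89 and 2.50, the chloride cotransporter Slc12a2, at 1.38 and 1.49, and Fxyd1, a pump regulator, at 1.16 and 1.04. In KO Kcna3 missed only the 2-fold minimum, at -0.78 (limma adjusted p 7.14e-05). Against the hippocampus, cerebellum was higher in both genotypes for Atp1b2, Slc4a4 and Slc12a2 (3.49% of rows in KO, 3.98% in WT) and lower for Car12, which stands on both lists. In hippocampus against cortex Car12 passed in each genotype. In KO against WT 0 of the 14 passed in any region.

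The partners of the 8 genes, such as receptors and carriers, were measured for 19 of 22. In cerebellum against cortex 3 were called higher in both genotypes (3.63% of rows in KO, 4.51% in WT), and 2 lower in KO (4.58%) and 1 in WT (5.47%). The water channel Aqp4 was higher by 2.40 in KO and 2.33 in WT, Igf2r, which takes up Igf2, by 1.19 and 1.55, and Fgfr1, the receptor that klotho joins, by 1.14 and 1.41. Rbp4, the retinol carrier that binds transthyretin, was lower, at -1.11 in KO and -1.38 in WT, and Lrp4, a receptor that binds Sostdc1, passed as lower in KO at -1.11. In WT Lrp4 missed only the 2-fold minimum, at -0.96 (limma adjusted p 4.28e-06). Against the hippocampus, cerebellum was higher for Aqp4 and Igf2r and lower for Lrp4 in both genotypes. In hippocampus against cortex 0 of the 19 reached the 2-fold minimum with an adjusted p under 0.05. Below that minimum Fgfr1 differed by 0.82 in KO (limma adjusted p 0.00157) and 0.84 in WT (0.0015), and Aqp4 by 0.83 in WT (0.00638). In KO against WT 0 passed in any region.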

How the data were processed

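Total RNA of 24 tissue samples was hybridised to 1 array each. The deposited values were made by the authors with RMA, per the submitters' processing notes, which state no version, settings, log base or genome build. The deposited values were taken as log2 intensities from their range, 3.89 to 19.14, which passes 16, the log2 ceiling of a 16-bit scan, in 291 rows. Nothing was normalized again. Of 22206 rows, 19572 had a gene symbol in the platform's annotation and were tested, and 2634 were left out. The knocked-out gene was not analysed here.

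The 8 genes and all gene lists were chosen with earlier results of these data known, so agreement among them is no independent evidence. The 6 group means were estimated by limma 3.58.1 under R 4.3.3 (lmFit, eBayes, 2-sided) from all 24 arrays without a block, which left 18 residual degrees of freedom. The average over regions and the F statistic had the animal as a random block (duplicateCorrelation, statmod 1.5.0), whose consensus correlation was 0.0065. The Benjamini-Hochberg adjustment ran over all 19572 rows, with a threshold of 0.05. Standard errors are those of the fit. Exact permutation tests used scipy.

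Genes named are the 8 members, the 10 genes most like them, the 6 of widest and 4 of narrowest span among the other choroid plexus genes, up to 4 genes of each further list, and up to 4 called per pathway list and contrast, smallest p first; a gene that 1 part of this rule names may be given in other contrasts too. The titles number the animals, and the same number in 2 regions of a genotype was read as the same mouse; KO and WT animals of 1 number are different mice. Deviations of the same animal in 2 regions correlated between -0.19 and 0.30 over all rows, above 0.1 in 6 of 24 pairs.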

Additional observations from a re-analysis of the deposited data

Results flagged for a closer look

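In 9 of the 48 sets of 4 arrays (8 genes in 6 groups), 1 array lay farther from the rest than Dixon's critical value for 4 samples at the 95% level allows. Chance alone flags about 1 in 20 such sets, and the genes share their arrays, so these sets are not independent. Cerebellum KO 3 accounted for 5 of the 9. There Ttr was 17.56, against 9.66 to 10.17 in the other KO arrays, and Kl was 11.21, against 6.85 to 7.27. Sostdc1 was 10.18 in that array, against 8.55 to 8.67, Folr1 was 10.99, against 8.28 to 8.70, and Igf2 was 15.19, against 13.44 to 13.74. This is also the array with the brainstem and oligodendrocyte markers.

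In the cerebellum of WT mice Ttr was 9.65 in WT 3, against 15.89 to 17.09 in the other 3 arrays. In the cortex of WT mice Ttr was 15.28 in WT 1, against 11.43 to 11.71. Otx2 was 9.41 in cerebellum KO 2, against 10.03 to 10.16 in the other KO arrays. Igf2 was 14.69 in hippocampus WT 4, against 14.29 to 14.33 in the other WT arrays.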

How the results depend on the processing

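Under the alternatives run for the 24 KO against WT differences (replicate block, the region's 8 arrays alone, quantile normalization again, dim rows left out, array weights, arrays left out), 0 of 320 values passed, with a lowest limma adjusted p of 0.341. Direction held in 288. With array weights Sostdc1 in cortex differed by 0.063; without cortex KO 1 and KO 4 together Sostdc1 differed by 0.13, Aqp1 by -0.24, Folr1 by 0.17 and Clic6 by 0.10. Leaving out single arrays, the cortex difference ran from -0.10 to 0.11 for Sostdc1, -0.021 to 0.49 for Aqp1, -0.18 to 0.050 for Folr1, -0.57 to 0.26 for Otx2 and -0.39 to 0.050 for Igf2. In hippocampus it ran from -1.95 to 0.61 for Ttr, -0.39 to 0.77 for Kl, -0.42 to 0.36 for Sostdc1, -0.17 to 0.24 for Aqp1, -0.67 to 0.53 for Folr1, -0.49 to 1.01 for Clic6 and -0.31 to 0.42 for Igf2. In cerebellum it ran from -1.09 to 0.12 for Folr1 and -0.41 to 0.027 for Otx2. The replicate block, for which KO and WT share a number only, gave Ttr in cerebellum -2.98 with a limma adjusted p of 0.659; it called 0 of the 8 genes in any region, and 35 of all rows in cerebellum. Same-numbered KO and WT arrays had deviations correlated between -0.24 and 0.30 over 12 pairs. Without the fold minimum the called choroid plexus genes numbered 7 for cerebellum against cortex in KO, 8 in WT, and 9 for cerebellum against hippocampus in WT. Leaving out animals, the count for cerebellum against hippocampus in KO ran from 3 to 9, and that for hippocampus against cortex in WT from 1 to 2. The cause of these shifts was not tested. The median Pearson r over the 28 pairs, 0.69 for deviations over all arrays, was 0.63 without hippocampus KO 1 and KO 4, and the median Spearman rho was 0.58. Within regions, deviations in place of levels, with or without Ttr, moved no median by more than the spread of its pairs. The row of lowest mean was not run, since each gene had 1 row. Signal over background could not be judged from these values.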
